A study of Homo sapiens with 6 samples.

Results

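The collagen chain genes of SK-BR-3 cells were examined in the count table, where protein-coding rows with a symbol of the form COL, number, A, number were taken as members. This gave 40 of 30327 genes, and COL6A6, COL9A1, COL19A1 and COL22A1 were not analysed here. SK-BR-3 is an established breast cancer line of luminal character that overexpresses the receptor HER2. The 6 libraries were 3 labelled si_NC, from cells given a nontargeting siRNA, and 3 labelled si_GRB2, from cells given an siRNA against GRB2, an adaptor protein that links receptor tyrosine kinases to RAS signalling. Both groups were the same line, transfected by the same method, and no other allele or agent is named for either. The titles and the genotype field of the si_GRB2 libraries name GRB2 overexpression instead, and the labels give neither the siRNA used for these libraries nor the time of RNA extraction. Nothing in the labels says that the replicates were separate cultures, so p-values measure the spread between these libraries, which may be technical.

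GRB2 was therefore examined first. It had 124, 129.5 and 126 CPM in si_NC and 27.8, 28.1 and 29.6 CPM in the libraries labelled si_GRB2, where CPM are counts scaled to library size with edgeR's TMM factors. Its log2 fold change, with the standard error (SE) of the edgeR fit, was −2.15 ± 0.04 (SE) at an adjusted p of 3.87e-15, so GRB2 RNA was lower in all 3 libraries that the titles call overexpression. The libraries held 24810378 to 28532480 reads counted on genes. Of the luminal and HER2 markers, ERBB2, which encodes HER2, averaged 3499 CPM in si_NC and 4140 CPM in si_GRB2, while CDH1, the epithelial cadherin, had 9 reads in all 6 libraries together. Of 15 stromal markers, VIM, SPARC, DCN, LUM, PDGFRA, PDGFRB, THY1, POSTN, FAP, COL1A2 and COL3A1 were at or near 0, with at most 21 reads in any library. The other 4 were not, with means in si_NC of 27.5 CPM for FN1 (fibronectin), 23.2 CPM for TAGLN, 4.50 CPM for COL1A1 and 1.72 CPM for ACTA2.

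Collagens are secreted or membrane proteins in which 3 α chains wind into a triple helix. Fibrillar collagens form the fibres of connective tissue. FACIT collagens decorate those fibres, collagen IV forms the network of basement membranes, collagen VII anchors epithelia to the stroma beneath, and the multiplexins XV and XVIII lie at basement membranes. In breast tumours most fibrillar collagen is made by fibroblasts, and carcinoma cells in culture make a smaller and different set of chains. Many types are heterotrimers, so a molecule needs the products of several genes.

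Collagen RNA was scarce in these cells. All 40 genes together took between 0.0175% and 0.0189% of the counted reads in each library. With expressed defined as at least 10 reads in every si_NC library, 15 of the 40 genes were expressed. Just inside this limit were COL6A1, with 22, 21 and 12 reads in the si_NC libraries, and COL27A1, with 20, 13 and 24 reads, and just outside it were COL11A2, with 15, 6 and 12 reads, and COL17A1, with 6, 9 and 6 reads. With at least 1 read in every si_NC library as the limit, 24 genes would count as expressed, and with a mean of at least 1 CPM or of at least 0.1 FPKM, 13 would. The filter on low counts (filterByExpr) let 17 genes into the test, namely the 15 expressed genes, COL11A2 and COL17A1. COL17A1 reached the filter through the si_GRB2 libraries alone. The 23 genes that were not tested had between 1 and 37 reads over all 6 libraries, and 13 of them had fewer than 10.

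**Figure D1:**
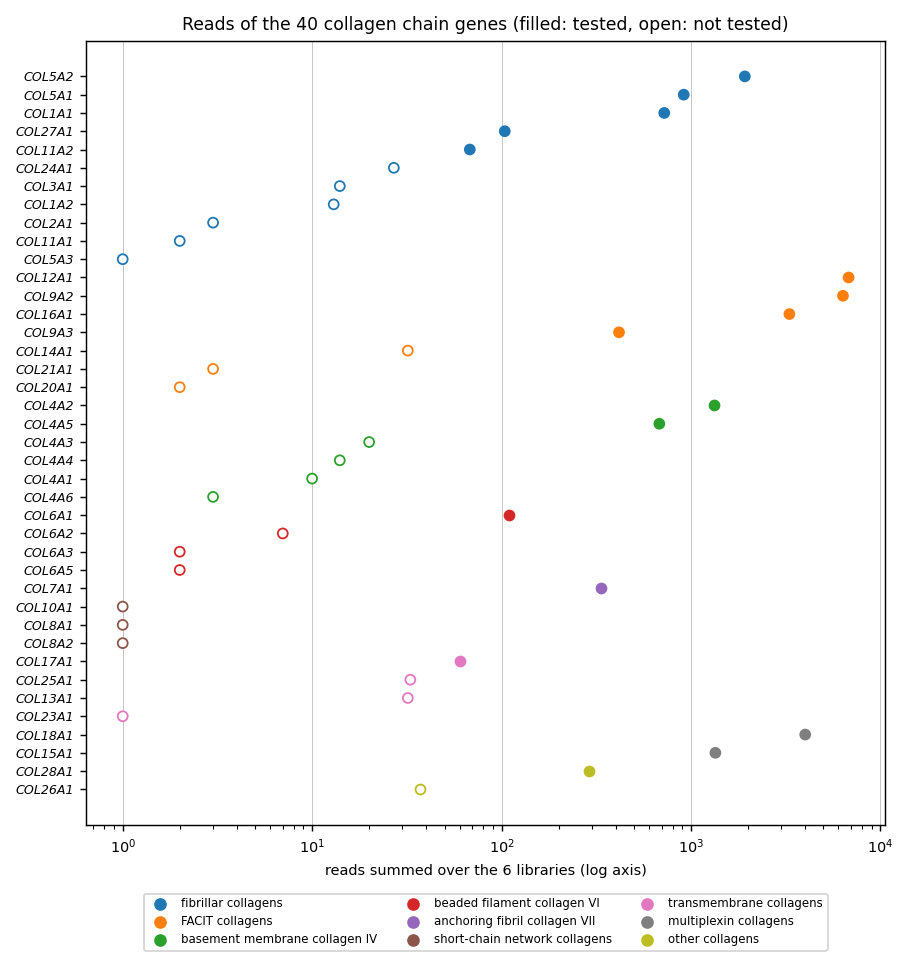
Reads of each of the 40 collagen chain genes, summed over the 6 libraries on a log axis and coloured by structural class, with filled points for genes tested and open points for genes not tested. Counts run from 1 read to 6796 reads for COL12A1, and the largest count of a gene not tested was 37.

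The tested genes, which include COL11A2 and COL17A1 from outside the expressed set, crossed the structural classes unevenly. Of 11 fibrillar chains, 5 were tested (COL5A2, COL5A1, COL1A1, COL27A1 and COL11A2), and of 7 FACIT chains in the table, 4 were (COL12A1, COL9A2, COL16A1 and COL9A3). Both multiplexins, COL18A1 and COL15A1, the only collagen VII gene, COL7A1, and the von Willebrand domain collagen COL28A1 were also tested. Of collagen IV, 2 of 6 chains passed, of collagen VI 1 of 4 in the table, and of the transmembrane collagens 1 of 4, namely COL17A1. None of the 3 short-chain network genes COL8A1, COL8A2 and COL10A1 passed, each having 1 read in total.

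Levels of different genes were compared by the authors' FPKM, which divides by gene length. COL9A2, a chain of cartilage collagen IX, stood first in every library, with 6.87, 7.20 and 8.54 FPKM in si_NC and 8.05, 8.32 and 7.21 in si_GRB2. The basement membrane multiplexin COL18A1, whose C-terminal fragment is endostatin, followed with 2.44, 2.36 and 2.66 FPKM in si_NC and 2.37, 2.42 and 2.25 in si_GRB2. COL12A1, a FACIT chain that binds collagen I fibres, had 2.06, 1.99 and 2.28 FPKM in si_NC. Its mean was 2.11 ± 0.151 FPKM (SD, n = 3) against 2.49 ± 0.155 for COL18A1, and each of its si_NC values lay below those of COL18A1. The FACIT chain COL16A1 lay below both in si_NC at 1.73, 1.74 and 1.92 FPKM.

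Below these, COL15A1 and COL5A2 had means of 1.26 ± 0.134 and 0.827 ± 0.0611 FPKM (SD, n = 3) in si_NC, with no overlap between their libraries. COL5A1, COL1A1, COL9A3 and COL4A2 came next at 0.407, 0.397, 0.37 and 0.343 FPKM, and neighbours among these 4 differed by less than their spread. COL4A5 had 0.293 FPKM, COL28A1 0.197, and COL7A1, COL6A1, COL11A2 and COL27A1 lay between 0.123 and 0.04. In si_GRB2 the order of the first 6 genes became COL9A2, COL18A1, COL5A2, COL16A1, COL12A1 and COL15A1. COL5A2 thus moved from rank 6 to rank 3 by mean FPKM, at 1.89 ± 0.170, although its values overlapped those of COL16A1 (1.82 to 1.88).

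**Figure D2:**
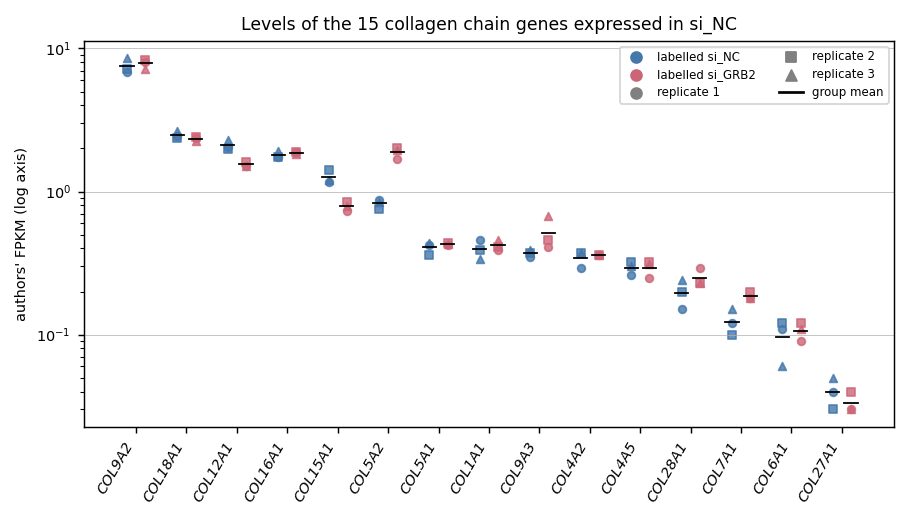
FPKM per library (log axis) of the 15 collagen chain genes expressed in si_NC, in their order of mean level there. Points are the 3 si_NC and the 3 si_GRB2 libraries, short lines are group means, and COL5A2 lies at 0.76 to 0.88 FPKM in si_NC and at 1.70 to 2.02 in si_GRB2.

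Partner chains of the same collagen were often present at very different levels. COL1A1, which with COL1A2 makes collagen I, had 104 to 149 reads per library, whereas COL1A2 had 13 reads in all. COL4A2 had 204 to 240 reads per library and its partner COL4A1 between 0 and 5. COL4A5 had 94 to 125 reads per library, while COL4A3, COL4A4 and COL4A6, its partners in the other collagen IV molecules, totalled 20, 14 and 3 reads. COL6A1 had 109 reads in all, against 7 and 2 for COL6A2 and COL6A3. Collagen V was the fibrillar type for which both main chains, COL5A1 and COL5A2, were expressed.

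Most of the few reads of COL3A1, COL1A2 and SPARC, genes typical of fibroblasts, came from si_NC replicate 1. That library held 11 of 14 COL3A1 reads, 9 of 13 COL1A2 reads and 21 of 32 SPARC reads. It also had the highest COL1A1 count, 149 reads, and the highest COL5A2 count of the si_NC group, 233 reads. Of the other stromal markers, VIM, TAGLN, LUM, PDGFRA and POSTN also had their highest si_NC count there. For FN1, ACTA2 and PDGFRB it was in si_NC replicate 3, and for DCN, THY1 and FAP in si_NC replicate 2. The 15 stromal markers summed to 56.5 to 60.9 CPM in si_NC and 50.2 to 51.5 CPM in si_GRB2. Of the 4 that could be tested, 2 were lower in si_GRB2, namely ACTA2, smooth muscle actin (log2 fold change −1.31, adjusted p = 0.00192), and TAGLN (−0.27, adjusted p = 0.00243). By the same limit, an adjusted p under 0.05, 15.5% of all genes tested were lower. FN1 was not called (−0.10, adjusted p = 0.152). Without si_NC replicate 1 the COL5A2 log2 fold change was 1.21, against 1.14 with it.

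Between the groups, 4 of the 17 tested collagen genes differed at an adjusted p under 0.05. COL5A2 and COL7A1 were higher in si_GRB2, and COL12A1 and COL15A1 were lower. Of all 15801 genes tested, 15.2% were higher and 15.5% lower by the same limit, so 2 of 17 in each direction was close to the background. As differentially expressed genes (DEGs, which changed more than 1.5-fold in either direction with an adjusted p under 0.01) counted COL5A2 among the higher genes and COL15A1 among the lower, where 0.829% and 1.69% of all tested genes were. The median log2 fold change of the 17 genes was 0.03, against 0.00 over all genes, and their values ran from −0.71 to 1.14. Among the 17 is COL17A1, which passed the filter through the si_GRB2 libraries alone. In bulk RNA, fewer cells expressing a gene and less RNA per cell cannot be told apart.

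**Figure D3:**
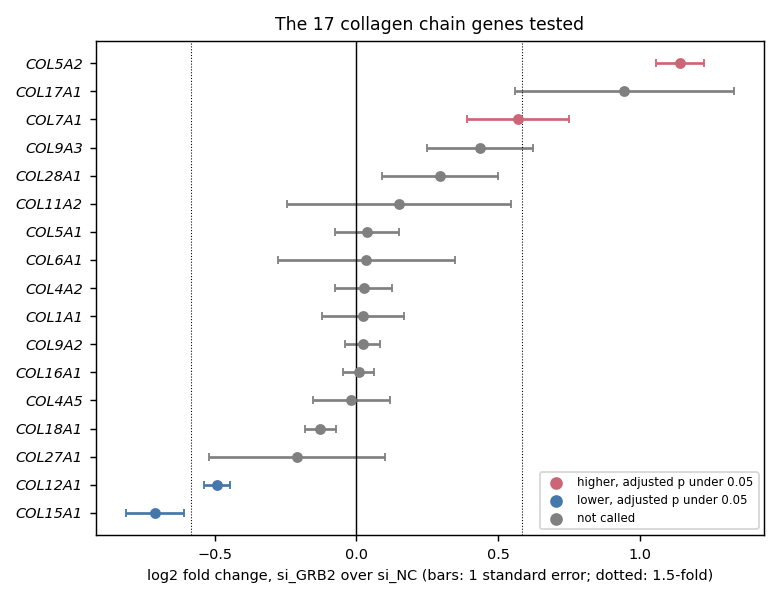
Log2 fold change of si_GRB2 over si_NC for the 17 collagen chain genes tested, with bars of 1 standard error and dotted lines at 1.5-fold. COL5A2 stands at 1.14 and COL15A1 at −0.71, while COL5A1, COL6A1, COL4A2, COL1A1, COL9A2, COL16A1 and COL4A5 lie between −0.02 and 0.04.

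COL5A2 encodes the α2 chain of collagen V, a minor fibrillar collagen that starts and sizes collagen I fibrils. The gene (ENSG00000204262.14) lies on the minus strand of GRCh38 at chr2:189031898-189225312 and has 55 merged exons in GENCODE 44. It had 233, 179 and 207 reads in the si_NC libraries and 391, 481 and 434 in the si_GRB2 libraries, or 8.31, 7.02 and 7.38 CPM against 15.5, 17.5 and 17.1 CPM. The lowest si_GRB2 library was well above the highest si_NC library. The means were 7.57 ± 0.663 and 16.7 ± 1.05 CPM (SD, n = 3), a 2.21-fold rise, or 1.14 ± 0.08 (SE) in log2 terms, and edgeR gave an adjusted p of 4.71e-08. Leaving out any library moved the log2 value to between 1.09 and 1.21, with an adjusted p of at most 3.95e-06.

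COL5A1, the α1 chain that pairs with COL5A2 in collagen V, gave no such difference. It had 170, 130 and 163 reads in si_NC and 146, 160 and 147 in si_GRB2, a log2 fold change of 0.04 ± 0.11 (SE) with an adjusted p of 0.855 from edgeR. An antisense lncRNA overlaps its exons over 54 bases and had 6.11% as many reads. By FPKM, COL5A2 stood at 2.10, 2.11 and 1.91 times COL5A1 in the si_NC libraries and at 4.05, 4.59 and 4.56 times COL5A1 in the si_GRB2 libraries. The ratio did not overlap between the groups, and an exact two-sided permutation test gave p = 0.1, the smallest that 3 against 3 libraries allow. COL5A3, the remaining collagen V gene, had 1 read.

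COL5A2 shares its locus with another fibrillar gene, COL3A1, which runs towards it on the plus strand and ends 19151 bases away. COL3A1 had 11, 1 and 0 reads in si_NC and 2, 0 and 0 in si_GRB2, too few to test. Of the next genes, the iron exporter SLC40A1 rose from 30.8, 28.2 and 31.3 CPM to 50.6, 49.2 and 49.9 CPM (log2 fold change 0.73 ± 0.05, adjusted p = 8.6e-09). Its groups were widely separated. WDR75, a ribosome biogenesis factor whose gene lies between COL5A2 and SLC40A1, had a log2 fold change of 0.04 (adjusted p = 0.543). GULP1, an engulfment adaptor on the far side of COL3A1, had −0.06 (adjusted p = 0.532).

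Set against the other 39 collagen genes, COL5A2 took a larger part of the collagen RNA in si_GRB2. By FPKM it made up 4.98%, 4.25% and 4.19% of the collagen sum in the si_NC libraries and 8.98%, 10.1% and 10.6% in the si_GRB2 libraries. The other genes summed to 176, 174 and 185 CPM in si_NC and to 164, 163 and 155 CPM in si_GRB2, so their sum lay lower in every si_GRB2 library. That sum holds the 2 genes called lower, COL12A1 (49.5 to 35.2 CPM on average) and COL15A1 (10.4 to 6.37 CPM). The median log2 fold change of the 16 other tested genes was 0.02, and 13 of them were not called. These 16 include COL17A1, which passed the filter through the si_GRB2 libraries alone, and whether the fall was general was not tested. The log2 ratio of COL5A2 to that sum was −4.56 ± 0.133 (SD, n = 3) in si_NC and −3.27 ± 0.121 in si_GRB2, a difference of 1.30. Against the mean log2 CPM of the other tested genes, COL17A1 included, the difference was 1.08. The exact two-sided permutation test again gave p = 0.1, the smallest it allows here. COL5A2 was singled out with its rise in these libraries already known, so its p-values here and above are descriptive and no independent support.

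Against each other tested gene except COL17A1, the log2 fold change of COL5A2 was larger by 0.57 to 1.85. The gap, with its SE in parentheses, was 1.85 (0.13) for COL15A1, 1.63 (0.10) for COL12A1, 1.12 (0.17) for COL1A1 and 1.11 (0.14) for COL5A1. It was 0.57 (0.20) for COL7A1 and 0.71 (0.21) for COL9A3. For COL17A1 the gap was 0.20 (0.40). That gene passed the filter only through the si_GRB2 libraries, where it was high, so COL5A2 was not ranked against it.

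COL7A1 encodes the chain of the anchoring fibrils that tie epithelia to the stroma, and lies on the minus strand at chr3:48564073-48595329. It had 47, 37 and 55 reads in si_NC and 63, 73 and 61 in si_GRB2, so the groups did not overlap but were close. The means were 1.70 ± 0.255 and 2.52 ± 0.126 CPM (SD, n = 3), with a log2 fold change of 0.57 ± 0.18 (SE) and an edgeR adjusted p of 0.0233. With 336 reads in all the call was not firm. It was lost without si_NC replicate 1 (adjusted p = 0.0609), si_NC replicate 2 (0.106), si_GRB2 replicate 1 (0.0521) or si_GRB2 replicate 2 (0.0830), and DESeq2 gave an adjusted p of 0.0823.

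COL12A1, the FACIT chain with the most reads, fell. Its gene (ENSG00000111799.22) lies on the minus strand at chr6:75084326-75206267. The si_NC libraries had 1400, 1204 and 1444 reads, and the si_GRB2 libraries 900, 978 and 870. In CPM these were 49.9, 47.2 and 51.5 against 35.8, 35.6 and 34.4, with every si_GRB2 library below every si_NC library. The means were 49.5 ± 2.14 and 35.2 ± 0.766 CPM (SD, n = 3), 1.41-fold lower in si_GRB2 (−0.49 ± 0.04 on the log2 scale, adjusted p = 4.85e-07), which falls short of the fold set for DEGs.

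COL15A1 encodes a multiplexin whose C-terminal fragment is known as restin, and lies on the plus strand at chr9:98943179-99070792 (ENSG00000204291.11). It had 279, 301 and 269 reads in si_NC and 153, 184 and 160 in si_GRB2, again with no overlap. The means were 10.4 ± 1.19 and 6.37 ± 0.313 CPM (SD, n = 3), 1.64-fold lower (−0.71 ± 0.10 on the log2 scale, adjusted p = 6.24e-05). The other multiplexin, COL18A1, had 26.5, 25.1 and 27.0 CPM in si_NC and 25.0, 24.2 and 22.8 CPM in si_GRB2. It was not called, at a log2 fold change of −0.13 ± 0.05 (SE) and an adjusted p of 0.0879. Exons of the folate carrier SLC19A1 overlap those of COL18A1 on the opposite strand over 1563 bases, and SLC19A1 had 168% as many reads, so that COL18A1 is uncertain where the counting did not use strand.

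**Figure D4:**
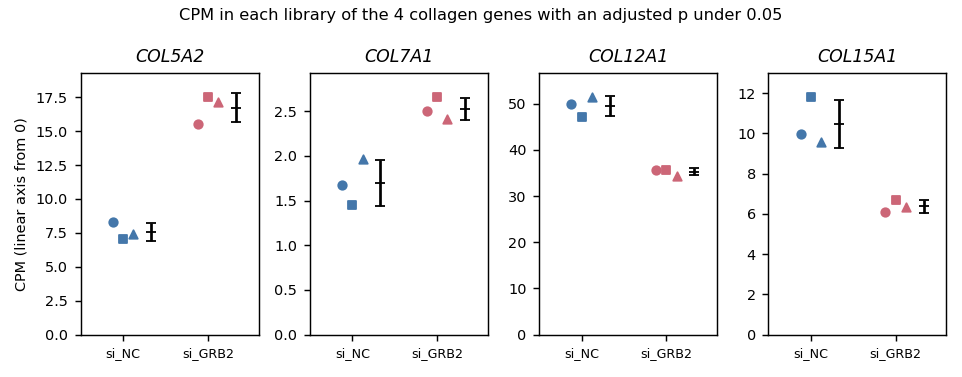
CPM in each library of the 4 collagen chain genes called at an adjusted p under 0.05, with group means and bars of 1 SD. In all 4 genes, which were chosen by their call, the si_NC and si_GRB2 libraries do not overlap, most narrowly in COL7A1 (1.96 against 2.41 CPM). COL18A1, COL9A3 and COL17A1, which were not called, do not overlap either, nor does COL4A1, which was not tested. The share of all tested genes without overlap was not computed, so the lack of overlap does not set the called genes apart.

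The promoters of the 2 genes that fell, and of COL4A2, which was not called, are printed as examples of the sequence at collagen gene starts. A difference between promoters of genes that did and did not move was not tested. RefSeq windows (GRCh38.p14, 250 bases before to 50 after the start) were given for 29 of the 40 genes, and COL5A2 was not among them. Capitals mark matches on either strand to the GC box GGGCGG, which is CCGCCC on the other strand, to the CCAAT box, which reads ATTGG on the other strand, or to the TATA box, taken as TATAAA and on the other strand as TTTATA. The windows, each read 5′ to 3′ on the gene's strand, are chr6:75206004-75206303 (minus), chr9:98943657-98943956 (plus) and chr13:110307034-110307333 (plus).
COL12A1: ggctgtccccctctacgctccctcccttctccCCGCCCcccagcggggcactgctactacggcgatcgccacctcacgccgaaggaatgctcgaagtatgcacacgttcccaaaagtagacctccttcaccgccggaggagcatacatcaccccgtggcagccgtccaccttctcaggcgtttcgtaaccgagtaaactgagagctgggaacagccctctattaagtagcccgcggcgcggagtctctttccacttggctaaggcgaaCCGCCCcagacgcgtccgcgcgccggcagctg
COL15A1: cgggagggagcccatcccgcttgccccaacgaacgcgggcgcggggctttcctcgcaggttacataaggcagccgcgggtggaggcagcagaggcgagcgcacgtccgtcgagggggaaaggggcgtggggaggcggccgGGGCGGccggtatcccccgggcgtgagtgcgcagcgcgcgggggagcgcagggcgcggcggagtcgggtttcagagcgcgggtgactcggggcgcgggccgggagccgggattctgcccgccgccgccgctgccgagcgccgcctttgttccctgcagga
COL4A2: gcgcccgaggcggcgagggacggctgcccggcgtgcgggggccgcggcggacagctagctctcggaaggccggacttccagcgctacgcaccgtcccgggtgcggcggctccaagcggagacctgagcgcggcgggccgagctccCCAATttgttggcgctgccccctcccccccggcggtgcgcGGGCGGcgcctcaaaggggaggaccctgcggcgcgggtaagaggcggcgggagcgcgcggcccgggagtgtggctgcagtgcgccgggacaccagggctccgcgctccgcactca

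The COL12A1 window held 2 GC boxes and that of COL15A1 held 1, with neither a CCAAT nor a TATA box in either. The window of COL7A1, which was called higher and is not printed, held 3 GC boxes and 1 TATA box. COL4A2 held 1 GC box and 1 CCAAT box. Its window shares 226 bases with that of COL4A1, as the pair is transcribed in opposite directions from a common promoter region, although COL4A2 had 1332 reads and COL4A1 had 10. Of all 35116 promoter windows, 45.0% held a GC box, 34.6% a CCAAT box and 11.5% a TATA box. The 29 collagen genes had 40 windows, since 7 of them have several starts. Of the 18 windows of tested genes, 13 held a GC box, 6 a CCAAT box and 3 a TATA box, and of the 22 windows of genes not tested, 10, 7 and 4 did. Windows of a gene can overlap. Overlapping matches of different motifs did not occur in the 3 printed windows, and a match describes letters in these windows only.

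The other 13 tested genes were not called. COL9A2, the highest by FPKM, had a log2 fold change of 0.02 ± 0.06 (SE) at an adjusted p of 0.844, and COL16A1 had 0.01 ± 0.06 at 0.943. COL4A2 and COL4A5, chains of basement membranes, gave 0.03 and −0.02, and COL1A1 gave 0.02 with an SE of 0.15. COL9A3, partner of COL9A2, had 2.18, 2.24 and 2.28 CPM in si_NC and 2.50, 2.66 and 3.91 CPM in si_GRB2. Its log2 fold change of 0.44 (adjusted p = 0.0924) dropped to 0.21 without si_GRB2 replicate 3. TCFL5, on the opposite strand of COL9A3 with 155 shared exonic bases and 524% as many reads, had a log2 fold change of 0.25 (adjusted p = 0.0120, or 0.0656 without si_NC replicate 3).

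The lowest of the tested genes allowed little precision. With the SE in parentheses, the log2 fold change of COL28A1 was 0.30 (0.21), of COL6A1 0.04 (0.31), of COL27A1 −0.21 (0.31) and of COL11A2 0.15 (0.39). With a library left out, COL28A1 ranged from 0.15 (without si_NC replicate 1 or si_GRB2 replicate 1) to 0.42. COL27A1 ranged from −0.39 (without si_NC replicate 2) and −0.38 (without si_GRB2 replicate 2) to −0.069 (without si_GRB2 replicate 3) and −0.037 (without si_NC replicate 3). COL17A1, the transmembrane collagen of hemidesmosomes, had 6, 9 and 6 reads in si_NC and 13, 12 and 14 in si_GRB2. As COL17A1 passed the filter only through si_GRB2, where it was high, no reading of the gene itself rests on its edgeR values. It does enter the counts and medians of the tested genes. Its edgeR values were 0.95 ± 0.39 (SE) at an adjusted p of 0.0774. Among genes not tested, COL4A1 had 0, 1 and 0 reads against 1, 3 and 5. The highest of the rest, COL26A1, COL25A1, COL13A1, COL14A1 and COL24A1, had 27 to 37 reads in total, and a difference in them was not detectable at this depth.

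Collagen chains are hydroxylated, glycosylated and folded in the endoplasmic reticulum, exported in large COPII carriers, trimmed and crosslinked outside the cell, bound by integrins and DDR receptors, and degraded by proteases. Of 59 genes listed for these steps, 57 were in the table and 42 were tested. Of these, 11 were higher and 12 lower in si_GRB2, against the 15.2% and 15.5% of all genes given above, and 19 were not called. Their median log2 fold change was 0.10. None was a DEG upward, and P3H2 and LOXL1 were DEGs downward, where 0.829% and 1.69% of all tested genes were.

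Among 16 tested genes of modification and folding, 5 were higher and 6 lower, where 15.2% and 15.5% of all genes were. The falls included P3H2, CRTAP and P3H4, whereas P3H1 was not called at 0.31 (adjusted p = 0.104). P3H2, a prolyl 3-hydroxylase, went from 11.5, 11.1 and 11.7 CPM to 5.09, 6.01 and 6.28 CPM (log2 fold change −0.98, adjusted p = 1.21e-06 from edgeR). CRTAP, the partner protein of prolyl 3-hydroxylation, fell by 0.56 on the log2 scale (adjusted p = 2.06e-09), and P3H4 by 0.29. SERPINH1, the collagen chaperone HSP47, went from 58.5, 64.4 and 59.3 CPM to 44.7, 41.8 and 41.4 CPM (−0.51, adjusted p = 5.81e-07). FKBP10 and FKBP14, prolyl isomerases, both fell by 0.12.

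Among the rises, P4HA2, a catalytic subunit of prolyl 4-hydroxylase, rose by 0.34 and P4HB, its disulfide isomerase subunit, by 0.16 on the log2 scale. The lysyl hydroxylase PLOD2 rose by 0.23, the galactosyltransferase COLGALT1 by 0.17 and the isomerase PPIB by 0.15. Adjusted p for these 5 genes was at most 0.00208.

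Of 10 export genes, all of them tested, 5 were higher and 1 lower, against the same 15.2% and 15.5% over all genes. CREB3L2, a transcription factor for secretory genes, rose from 45.0 to 57.4 CPM on average (log2 fold change 0.35). The COPII coat genes SEC31A and SEC23A rose by 0.29 and 0.18, KLHL12, which enlarges COPII carriers, by 0.22, and MIA3, the procollagen export receptor TANGO1, by 0.17. TMEM38B, an endoplasmic reticulum cation channel, fell by 0.19 (adjusted p = 0.0219).

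Of 7 tested genes of processing and crosslinking, 3 fell and none rose, against 15.5% lower and 15.2% higher over all genes. The lysyl oxidase gene LOXL2 fell from 16.7, 16.2 and 16.2 CPM to 11.4, 11.7 and 9.84 CPM (log2 fold change −0.58, adjusted p = 2.46e-05). LOXL1, another lysyl oxidase, had 21, 14 and 35 reads against 10, 7 and 6 (−1.52 ± 0.39, adjusted p = 0.00696), and the procollagen peptidase ADAMTS3 fell by 0.46 (adjusted p = 0.0392). Among 6 tested receptors, DDR1, a collagen-binding kinase, fell by 0.14 and ITGB1, the integrin β1 chain, rose by 0.19. Of 3 tested proteases, MMP9 fell by 0.55 (adjusted p = 0.0386). Some of these calls were weak. LOXL1 had 3 si_NC libraries but only 1 si_GRB2 library over the filter on low counts, so it was tested through si_NC, where it was high. With a library left out, its edgeR adjusted p reached 0.0461, over the limit for DEGs. ADAMTS3 was lost without any given library (adjusted p at most 0.0934), MMP9 without any library but si_GRB2 replicate 1 (at most 0.171), FKBP14 without any but si_GRB2 replicate 3 (at most 0.120), and TMEM38B without si_GRB2 replicate 1 (0.120), si_GRB2 replicate 2 (0.0806) or si_NC replicate 2 (0.0623).

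**Figure D5:**
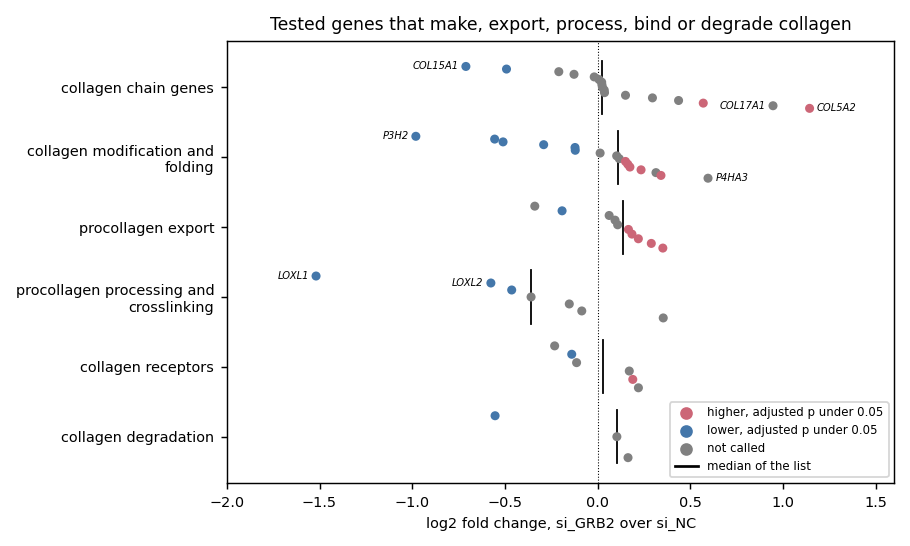
Log2 fold change of si_GRB2 over si_NC for each tested gene of the collagen chain genes and of 5 lists of genes that act on collagen, coloured by call at an adjusted p under 0.05, with a black line at each list's median. The medians are 0.03 for the chains, 0.11 for modification and folding, 0.14 for export, −0.36 for processing and crosslinking, 0.03 for receptors and 0.10 for degradation.

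Of 9 tested luminal and HER2 markers, 1 was higher (ERBB2, log2 fold change 0.24) and 6 were lower, where 15.2% and 15.5% of all genes were. The 6 were GRB7 (−0.23), EPCAM (−0.55) and the keratins KRT8, KRT18, KRT19 and KRT7. GATA3 and TFAP2B were not called, with means of 3.50 and 3.08 CPM in si_NC. The 10 listed markers, CDH1 included, summed to 19596 to 20063 CPM in si_NC and 16376 to 17056 CPM in si_GRB2. Markers of immune and endothelial cells, together with the hormone receptors ESR1 and PGR, summed to at most 4.03 CPM in any library. In total PTPRC had 2 reads, PECAM1 3 and PGR 3, whereas VWF had 192, CD68 181 and ESR1 191. The part of the marker levels in the collagen results was not tested.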

How the data were processed

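The 6 libraries, 3 si_NC and 3 si_GRB2 by their descriptions, were strand-specific (dUTP) preparations of poly(A) RNA from the SK-BR-3 line. The authors trimmed reads with FASTX-Toolkit, aligned them to GRCh38 with HISAT2, which the submitters' processing notes also name, and kept unique alignments. The authors deposited the count of reads per gene, with no normalization, and FPKM per gene, rounded to 2 decimals. The counting tool, its use of strand, the annotation release and the total behind FPKM are not given in the sources used here.

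TMM factors and CPM were computed from the counts in edgeR 4.0.16 under R 4.3.3. The groups were compared without covariates by its quasi-likelihood test over the 15801 genes that filterByExpr kept, with Benjamini-Hochberg adjustment over all of these. Standard errors are the log2 fold change over the square root of F. The test was checked on simulated data. Called genes had an adjusted p under 0.05. DEGs had an adjusted p under 0.01 and a fold above 1.5 or at most its inverse. For the standard error of a difference between genes, both were taken as independent. The log2 ratio of COL5A2 to the other collagens was compared by an exact permutation test. Positions came from GENCODE 44 on GRCh38, which held all 40 members, and promoters from RefSeq.

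The members, gene lists and rule for named genes were chosen with earlier results of these data known. Values were given for each tested collagen gene, in every library where it was called or among the 5 highest by FPKM, for genes of the other lists with an adjusted p under 0.01 or the 3 largest changes called, and for neighbours of COL5A2. Overlapping genes and the cell type markers named were chosen after their values were seen. Tried as alternatives were the DESeq2 1.42.0 test, edgeR with DESeq2's size factors, different count filters, a replicate block, limma 3.58.1 on log2(FPKM + 1) and log2(FPKM + 0.1), different limits for expressed, different denominators, and each library left out. Python 3.11.15, pandas 2.3.3, numpy 2.4.6 and matplotlib 3.10.9 made other tables and figures. Read totals set the precision of each gene, and intervals were not computed for FPKM. The fRIP-seq libraries and splicing were not analysed here.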

Additional observations from a re-analysis of the deposited data

How the results depend on the processing

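COL5A2 stayed higher and called in every alternative, with log2 fold changes of 0.66 to 1.21, and GRB2 stayed lower at −2.18 to −1.91 (−2.18 to −2.13 with a library left out). COL12A1 and COL15A1 also kept their call in every alternative. The number of collagen genes called higher dropped from 2 to 1, through COL7A1, with DESeq2 and in the 3 limma fits on FPKM, where its adjusted p was 0.159, 0.297 and 0.274. It ranged from 1 to 2 with each library left out, while the number called lower was 2 throughout. The number of DEGs was 1 in place of 2 in the limma fits, where COL15A1 missed the limits, and 2 with each library left out. Expressed in si_NC were 24 genes with a limit of 1 read in every library, 13 with a mean of at least 1 CPM or 0.1 FPKM, and 15 to 16 with each si_NC library left out. COL5A2 against the other collagens gave 1.08 with their mean log2 CPM as denominator, 1.23 by FPKM, and 1.25 to 1.37 with each library left out. Of 215 refits of the other 16 tested members, 189 kept direction and side of the threshold, 8 lost the call, and 18 changed sign, each with a library left out and in genes not called. With each library left out, COL16A1 gave −0.023 to 0.029, COL4A2 −0.070 to 0.085, COL4A5 −0.083 to 0.063, COL9A2 −0.029 to 0.086, COL11A2 −0.11 to 0.41, COL6A1 −0.22 to 0.18, COL1A1 −0.11 to 0.16 and COL5A1 −0.037 to 0.081. Replicate numbers were treated as names of the libraries. Deviations of same-numbered libraries correlated at 0.23, −0.09 and 0.08, which does not settle pairing, as differently numbered libraries were not compared. With the replicate number as a block, COL5A2 gave 1.14 and GRB2 −2.15, and no collagen call changed. Refits of 37 other genes were chosen after seeing the data. Of 516 refits, 433 kept the call or its absence, 83 lost the call and none changed sign, the losses including ADAMTS3, FKBP14, MMP9, TMEM38B and TCFL5 with a library left out. In limma fits on FPKM the calls of 21 genes were lost in at least 2 of 3 fits, among them LOXL1, ACTA2, DDR1, ITGB1, PLOD2, PPIB and MIA3, whereas P3H2, CRTAP and SERPINH1 stayed called. The cause was not tested.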
